A study of Mus musculus with 2 samples.

Results

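The 8 genes described here are commonly used to tell macrophages of monocyte origin from resident alveolar macrophages (AMs): C1qa, C1qb, C1qc, Ms4a7, Itgam, Ccr2, Cx3cr1 and Ly6c2. They were taken by symbol from 32285 Ensembl gene IDs, and all 8 members were found. The study compared AMs sorted from the lungs of C57BL/6 mice bearing orthotopic Lewis lung carcinoma with AMs of vehicle-injected control mice, both at postnatal week 10. Each group was 1 droplet 3′ library, labelled Control-AM and Tumor-AM, so differences between groups had no replicate check and no p-value was computed. In the study's methods the carcinoma cells of the model carried the red fluorescent protein tdTomato and went into the left lung, tumor-bearing and control mice were bred separately, and lungs of female adults were digested without perfusion, so blood was not washed out. The study characterises its sorted AMs as CD45+, autofluorescent, Siglec-F+, F4/80+, CD11c+ and CD11b-, but the exact gate of these libraries is not given in the sources used here. Itgam encodes CD11b and Siglecf encodes Siglec-F, so a sort of this kind can act directly on cells with these transcripts. How many mice gave the cells of a library is not given in the sources used here.

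AMs live in the air space, are seeded before and around birth and maintain themselves with little input from blood. Circulating classical monocytes carry the chemokine receptor CCR2 and the surface protein Ly6C, and on entering tissue they lose both while gaining macrophage products such as the C1q chains, MS4A7 and often CX3CR1. C1qa, C1qb and C1qc encode the A, B and C chains of C1q, the recognition unit that starts the classical complement pathway, and macrophages are its main source. Apoe, a lipid carrier abundant in many tissue macrophages but low in AMs, and the AM products Chil3 (Ym1, a chitinase-like protein) and Siglecf (a sialic-acid-binding receptor) serve as reference points.

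Barcodes with at least 500 detected genes and at most 10% mitochondrial UMIs (unique molecular identifiers, 1 per captured molecule) were used, 6185 of 8485 in the control and 7666 of 9175 in the tumor library. They held 64850143 and 68801889 UMIs, with medians of 10370 and 8264 UMIs per barcode. As a check of the AM label, Siglecf had a UMI in 67.1% of control and 51.3% of tumor barcodes, and in none of 10 control and 17 tumor barcodes with markers of other cell types. Chil3 had a UMI in 99.7% and 99.0%, but also in 10 of those 10 and 13 of those 17. The 25 barcode sequences that both tables shared included 17 among the barcodes used. Of the 381 tumor barcodes with any C1q UMI, 1 had its sequence in the control library. A level below is the number of UMIs of a gene per 1000000 UMIs (CPM) summed over a library, with its exact 95% Poisson interval. All intervals cover counting error only and not the variation between mice. Those of levels and ratios also take each UMI as independent, so they are too narrow where few barcodes held most UMIs of a gene.

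All 8 genes had a higher level in the tumor library than in the control library. The ratio was at least 2-fold for 6 of the 8, namely the 3 C1q genes, Ly6c2, Itgam and Ccr2. As background, 13581 genes reached 20 UMIs in the libraries together, and of these 6.02% were at least 2-fold higher and 6.91% at least 2-fold lower in the tumor library. The median log2 ratio was 3.17 over the 8 genes and -0.07 over all genes tested. Chil3 differed little, with 11657 CPM in the control and 10519 CPM in the tumor library, and Siglecf had 136.6 against 101.9 CPM. Apoe was at 25.6 CPM in the control and 603 CPM in the tumor library.

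**Figure D1:**
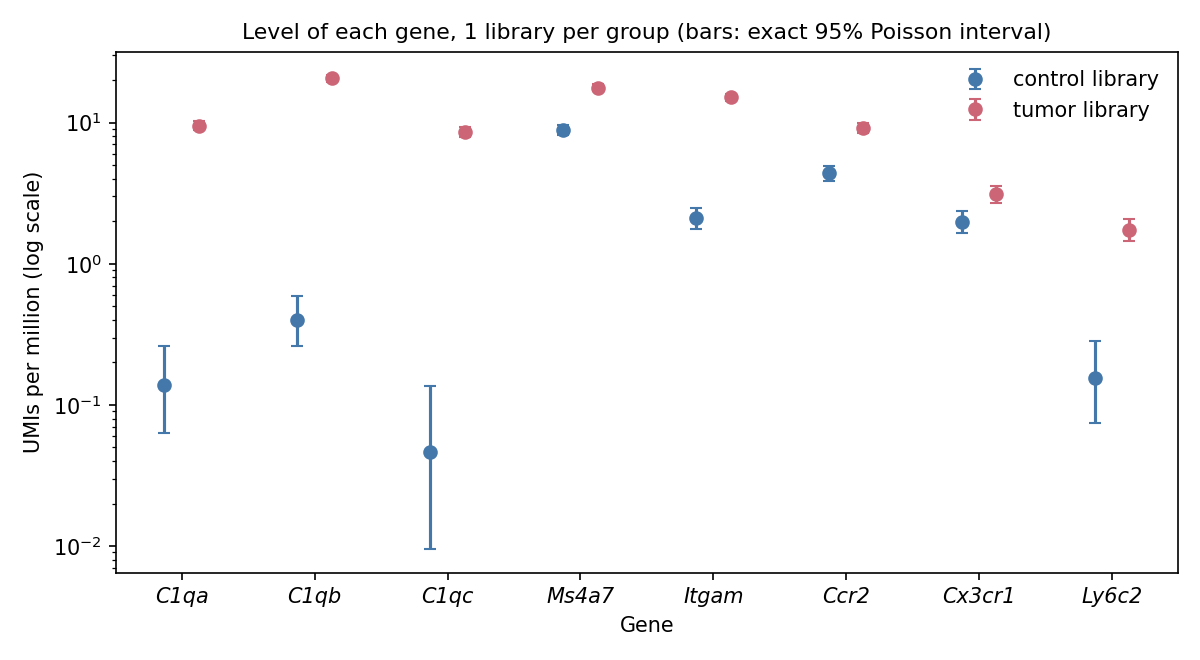
Level of each of the 8 genes (CPM, log scale) in the control and the tumor library, 1 library each, with exact 95% Poisson intervals. The intervals of the libraries overlap for none of the 8 genes, and the gap is widest for C1qa, C1qb and C1qc.

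The C1q genes stood apart by the size of the difference. C1qa had 9 UMIs in the control library, a level of 0.139 CPM (0.0635 to 0.263), while the tumor library had 656 UMIs, or 9.53 CPM (8.82 to 10.3). That is a ratio of 68.7, or 6.10 (5.17 to 7.24) on the log2 scale. C1qb went from 26 UMIs and 0.401 CPM (0.262 to 0.587) to 1416 UMIs and 20.6 CPM (19.5 to 21.7), a ratio of 51.3 (34.9 to 78.9). C1qc had only 3 control UMIs, or 0.0463 CPM, against 588 and 8.55 CPM (7.87 to 9.27), and its ratio of 185 had an interval from 62.9 to 898. In the control library the C1q transcripts were therefore near the limit of what the depth could show.

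The 3 C1q genes are neighbours. In GENCODE annotation of build GRCm38 they lie on the minus strand of chromosome 4 in the order C1qb, C1qc and C1qa, within 18675 bases (chr4:136880129-136898803). RefSeq gives promoter sequence on the matching build for 7 of the 8 genes. The 250 bases before the start sites of C1qb (chr4:136886201-136886450, minus strand) and C1qc (chr4:136892915-136893164, minus strand) are printed because these neighbours differed together between the libraries. Capitals mark matches to a PU.1 core (GAGGAA) or a MAF half-site (TGCTGA), PU.1 and MAF proteins being transcription factors of the macrophage lineage.
C1qb: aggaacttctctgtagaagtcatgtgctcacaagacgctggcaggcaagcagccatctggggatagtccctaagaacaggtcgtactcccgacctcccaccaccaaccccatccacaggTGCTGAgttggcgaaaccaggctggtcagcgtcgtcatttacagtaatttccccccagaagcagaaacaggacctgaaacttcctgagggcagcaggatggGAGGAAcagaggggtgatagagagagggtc
C1qc: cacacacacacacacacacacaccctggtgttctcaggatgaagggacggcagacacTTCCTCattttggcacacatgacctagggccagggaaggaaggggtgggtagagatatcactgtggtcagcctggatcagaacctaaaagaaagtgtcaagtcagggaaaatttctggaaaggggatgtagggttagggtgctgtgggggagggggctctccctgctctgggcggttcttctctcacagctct
Searched on both strands, the C1qb window held the MAF half-site 131 bases and the PU.1 core 30 bases before the start, and the C1qc window held 1 PU.1 core, on the opposite strand, beginning 193 bases before it. Of 32851 RefSeq promoter windows of the same length, 23.3% held the PU.1 core and 16.1% the MAF half-site. No match to a C/EBP motif (TTGCNNAA, in 9.56% of windows) or to the interferon-response motif searched (in 2.98%) lay in either window. These are matches of letters only.

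The remaining genes differed by less over all barcodes used. Ms4a7, a membrane-spanning protein of macrophages, had 576 control UMIs, a level of 8.88 CPM (8.17 to 9.64), and 1212 tumor UMIs, a level of 17.6 CPM (16.6 to 18.6), a ratio of 1.98 (1.79 to 2.19). Itgam, the alpha chain of the integrin CD11b/CD18 that also serves as complement receptor 3, was at 2.10 CPM (1.76 to 2.48) in control barcodes and 15.1 CPM (14.2 to 16.0) in tumor barcodes, which is a ratio of 7.19 (6.01 to 8.67). Its transcript was thus found in both libraries although the sorted cells are described as CD11b-. The 2 chemokine receptors were nearer to parity than Itgam. Ccr2, the receptor for CCL2, was at 4.38 CPM (3.88 to 4.92) and 9.16 CPM (8.46 to 9.90), a ratio of 2.09 (1.81 to 2.41). Cx3cr1, the fractalkine receptor, was at 1.97 CPM (1.65 to 2.35) and 3.11 CPM (2.71 to 3.56), a ratio of 1.58 (1.26 to 1.98). Ly6c2, which encodes the Ly6C antigen of classical monocytes, was the scarcest of the genes outside C1q, with 10 control UMIs (0.154 CPM) and 120 tumor UMIs (1.74 CPM). Its ratio was 11.3 (5.94 to 24.2), or 3.50 on the log2 scale. A mitochondrial limit of 5% moved this to 5.79 (3.91 to 8.86), against 5.70 for C1qb at that limit. Of 695 stretches of 91 bases in the last 500 bases of Ly6c2 transcripts, 132 also occurred in Ly6c1, so reads can be shared between them, and Ly6c1 itself was at 0.678 and 2.17 CPM. For Itgam 24.4% of such stretches were shared with the overlapping model Gm49368, which has no row in the count tables, and for the other 6 genes none was shared with another gene. The Cx3cr1 locus, long in this annotation, overlaps other genes on both strands, among them Csrnp1 with 3118 control and 6471 tumor UMIs.

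Because the shares of barcodes with a UMI depend on depth, every barcode was also thinned to 3800 UMIs, which kept 5590 control and 6937 tumor barcodes and left out 595 and 729 shallower ones. All 8 genes remained in a larger share of the thinned tumor barcodes. C1qb was found in 0.179% of control and 1.73% of tumor barcodes, C1qa in 0.0716% and 0.894%, and C1qc in 0.0179% and 0.908%. Ms4a7 was found in 3.42% and 5.29%, Itgam in 0.644% and 3.92%, and Ccr2 in 1.31% and 2.88%. Cx3cr1 was found in 0.304% and 0.735%, and Ly6c2 in 0.0358% and 0.245%, where the Ly6c2 intervals (0.00433% to 0.129% and 0.143% to 0.392%) lay close together. At full depth the shares ran from 0.0485% to 7.68% in the control and from 0.522% to 11.1% in the tumor library. At levels this low a share of barcodes with a UMI is not the share of cells that express the gene. As a check for free RNA, barcodes of other cell types were taken, and C1qa, C1qb, C1qc, Ms4a7, Itgam, Ccr2 and Cx3cr1 had no UMI in any of 10 control and 17 tumor ones, while Ly6c2 had a UMI in 1 tumor one. Apoe had a UMI in 1 of the 10 and 6 of the 17, so 1 or a few Apoe or Chil3 UMIs do not show that a cell made the transcript. Their median depths were 4117.5 and 12022 UMIs, and a count of 0 in so few barcodes allows, at a limit of 3 counts, shares of up to 30% and 17.6%.

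The UMIs were spread over cells in different ways. In the tumor library the 10 barcodes with the most UMIs held 65.5% of all C1qa, 46.0% of C1qb and 55.6% of C1qc UMIs, with up to 95, 111 and 48 UMIs in 1 barcode. Ms4a7, Itgam and Ccr2 were thinly spread, since their top 10 barcodes held 6.93%, 9.44% and 7.62% of UMIs in the tumor library. Cx3cr1 and Ly6c2 were again concentrated. In the control library the top 10 barcodes held 77.3% of Cx3cr1 UMIs, and 8 of the 10 Ly6c2 UMIs came from a single barcode. In the tumor library the top 10 barcodes held 36.4% of Cx3cr1 and 74.2% of Ly6c2 UMIs, and the barcode with most Ly6c2 held 21 of its 120 UMIs. Leaving out every barcode with 5 or more UMIs of the gene, 8 in the control and 13 in the tumor library, turned the Cx3cr1 levels into 0.541 and 1.76 CPM and the log2 ratio from 0.66 into 1.70 (1.15 to 2.29), so a few control cells set much of its pooled level. The same step left a log2 ratio of 3.75 for C1qa, 3.25 for C1qb and 5.20 for C1qc, which had been 6.10, 5.68 and 7.53. The mean of each cell's own CPM gave 4.47 for C1qa and 4.25 for C1qb.

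**Figure D2:**
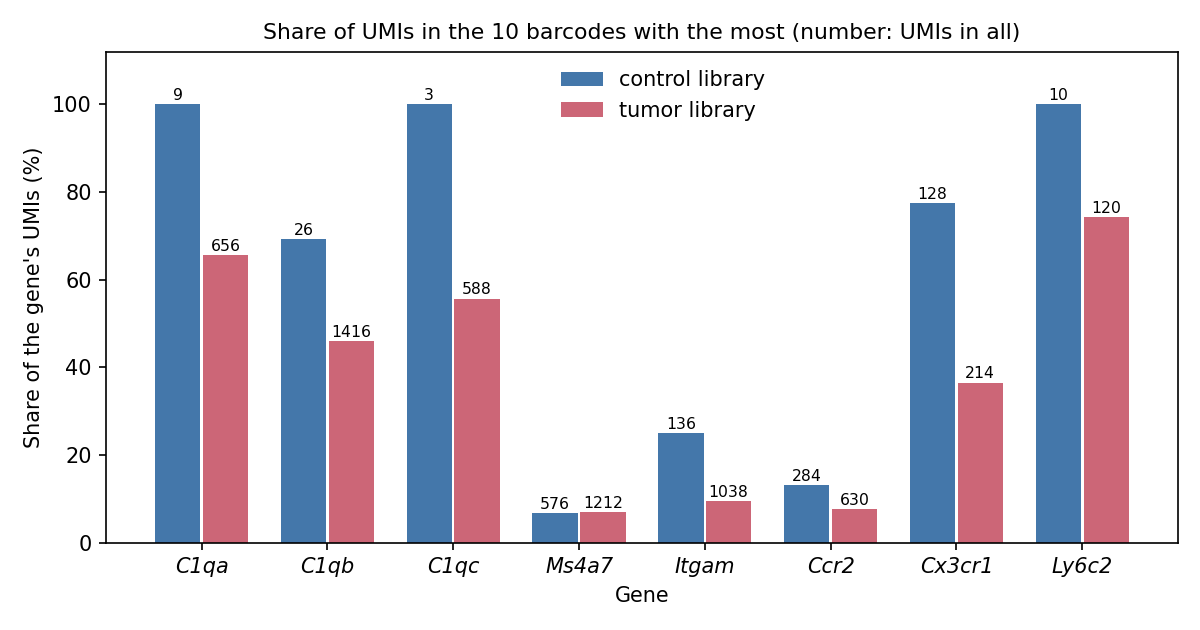
Share of each gene's UMIs (percent) that lay in the 10 barcodes with the most UMIs of that gene, per library, with the gene's total UMIs above each bar. Ms4a7 and Ccr2 were spread over many barcodes, whereas tumor C1q genes and Ly6c2 and control Cx3cr1 were held by few, and the control bars of C1qa, C1qc and Ly6c2 reach 100% because these genes had 10 UMIs or fewer.

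The C1q genes were found in the same cells. Among thinned tumor barcodes with a C1qc UMI, 50.8% (37.9% to 63.6%) also had a C1qb UMI, against 1.28% (1.03% to 1.57%) of those without C1qc. C1qb was found in 37.1% of barcodes with C1qa and in 1.41% of those without, and C1qc in 33.9% and 0.611%. Barcodes with C1qa also carried Ms4a7 more often, 29.0% (18.2% to 41.9%) against 5.08%, and Itgam, 25.8% (15.5% to 38.5%) against 3.72%. No such pairing was detectable for Ccr2, which was found in 1.61% (0.0408% to 8.66%) of barcodes with C1qa and in 2.89% of those without. Itgam and Ms4a7 overlapped more weakly with each other, with Ms4a7 in 12.9% of Itgam-positive and 4.98% of Itgam-negative barcodes. Of 200 Ccr2-positive barcodes, 18 had Ms4a7 and 18 had Itgam, against 5.18% and 3.77% of Ccr2-negative ones. Of the 17 thinned barcodes with Ly6c2, 6 had Itgam, 2 had Ccr2 and 3 had C1qb, too few to order.

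**Figure D3:**
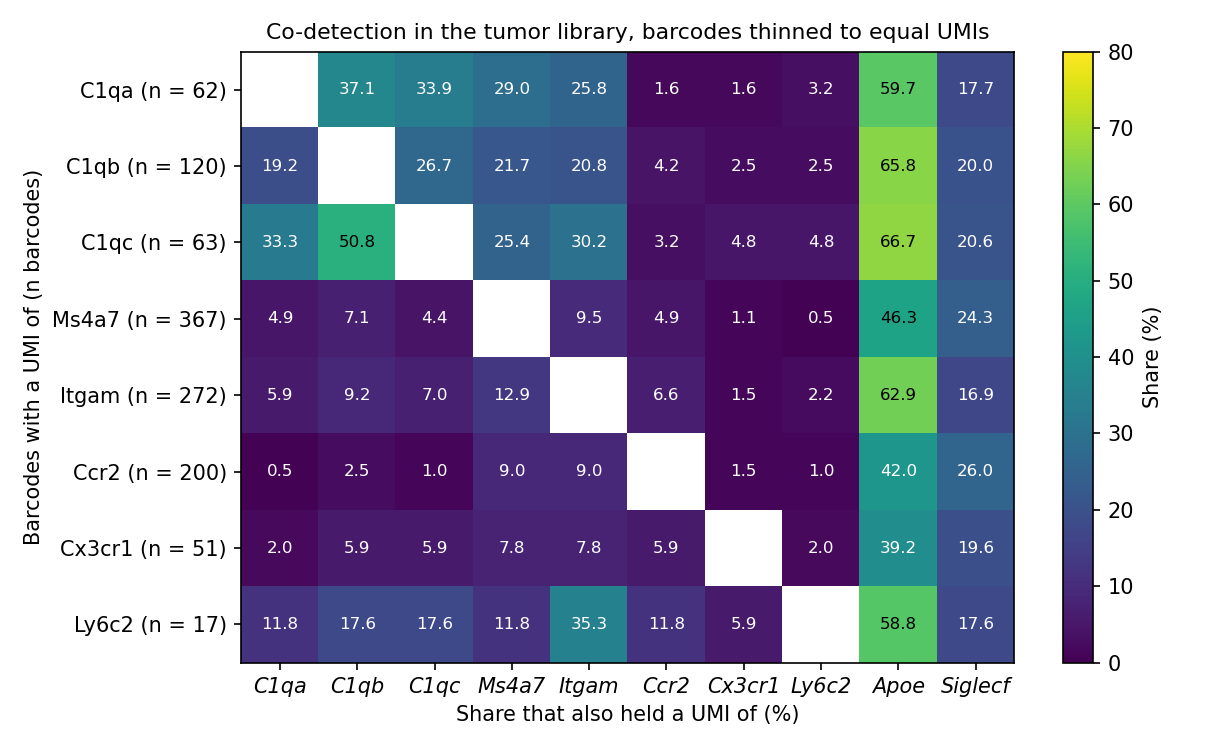
Percent of thinned tumor-library barcodes with a UMI of the row gene that also had a UMI of the column gene, with the number of barcodes per row. The Apoe column holds the highest share in every row, and C1qb was found in 37.1% and 50.8% of barcodes with C1qa and C1qc. Over all thinned tumor barcodes Apoe had a UMI in 28.1%, Siglecf in 30.9% and C1qb in 1.73%, so the columns differ in their base share.

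A barcode with UMIs of at least 2 of the 3 C1q genes is called a C1q cell. The control library had 4 such cells, 0.0647% of barcodes (0.0176% to 0.166%), and the tumor library had 76, or 0.991% (0.782% to 1.24%). All 3 genes were detected in 31 of the 76, and in none of the 6185 control barcodes, which at a limit of 3 counts allows a share of up to 0.0485%. These 31 cells, 0.404% of the tumor barcodes, held 77.7% of all C1q UMIs of their library, with a median of 44 and a range of 3 to 238 C1q UMIs each. They were deep, with a median of 20261 UMIs against 8169 in barcodes with no C1q UMI. None of them was among the barcodes with the highest Scrublet doublet scores, but 5 of the 45 cells with 2 C1q genes (11.1%) and 33 of the 305 barcodes with 1 (10.8%) were, against 5.11% of those with no C1q UMI. Of the 305 tumor barcodes with a single C1q gene, C1qb was the one found in 163. More than 1 C1q gene is more easily detected in a deep barcode, and after thinning 38 tumor and 3 control barcodes met the definition.

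In the tumor library the C1q cells were Apoe-rich and Chil3-poor. Apoe was at 11398 CPM in the 76 cells and at 397 CPM in the other 7590, a log2 ratio of 4.84 (4.81 to 4.87). Chil3 was at 3963 against 10644 CPM, a log2 ratio of -1.43 (-1.47 to -1.39), and Siglecf at 68.5 against 102.5 CPM, a log2 ratio of -0.58 (-0.90 to -0.28). Of the 12493 genes with at least 20 UMIs in this library, 5.64% were at least 2-fold higher and 20.9% at least 2-fold lower in C1q cells, with a median log2 ratio of -0.32. Of the 8068 genes with at least 500 UMIs, these shares were 2.24% and 9.58%. Among the 5 members that did not define the class, Ly6c2 had a log2 ratio of 3.93 (3.26 to 4.56), Ms4a7 2.99 (2.74 to 3.23), Itgam 2.96 (2.69 to 3.22) and Cx3cr1 1.99 (1.12 to 2.74). Ccr2, at 14.0 against 9.06 CPM, had a log2 ratio of 0.63 with an interval that included 0 (-0.14 to 1.30). Ccr2 was detected in 10 (13.2%), Cx3cr1 in 5 (6.58%) and Ly6c2 in 6 (7.89%) of the 76 C1q cells, against 5.61%, 1.09% and 0.448% of the other, shallower cells, while Ms4a7 was in 43 and Itgam in 42 of the 76.

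Cells with more C1q genes had less Chil3. Cells with 2 C1q genes had Chil3 at 6008 CPM and Apoe at 5437 CPM, and cells with all 3 had Chil3 at 1726 CPM and Apoe at 17923 CPM. Of the 31 cells with all 3 genes, 19 had a Chil3 level under 0.1 times that of the library. Those 19 had Itgam at 197 CPM (154 to 248), and the other 12 at 52.5 CPM (28.0 to 89.8), while Ms4a7 was at 216 and 194 CPM. Ly6c2 had 25 UMIs in 4 of the 19 cells and 1 UMI in the other 12. Siglecf was less unequal between them, with a UMI in 8 of the 19 and in 11 of the 12, and levels of 51.9 CPM (31.2 to 81.1) and 84.8 CPM (52.5 to 130). Marco, a scavenger receptor of AMs, was at 2.73 and 60.6 CPM. The 4 control C1q cells were unlike these in Chil3, at 25577 CPM, and they had 11 C1q UMIs in all. Apoe was found in 2 of the 4, at 530.5 against 25.4 CPM in the other control cells. That log2 ratio of 4.39 (3.51 to 5.14) was near the 4.84 of the tumor library, though the level was far lower. Ms4a7, on 2 UMIs, was at 75.8 against 8.85 CPM, while Ccr2, Cx3cr1 and Ly6c2 had no UMI in these control cells.

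**Figure D4:**
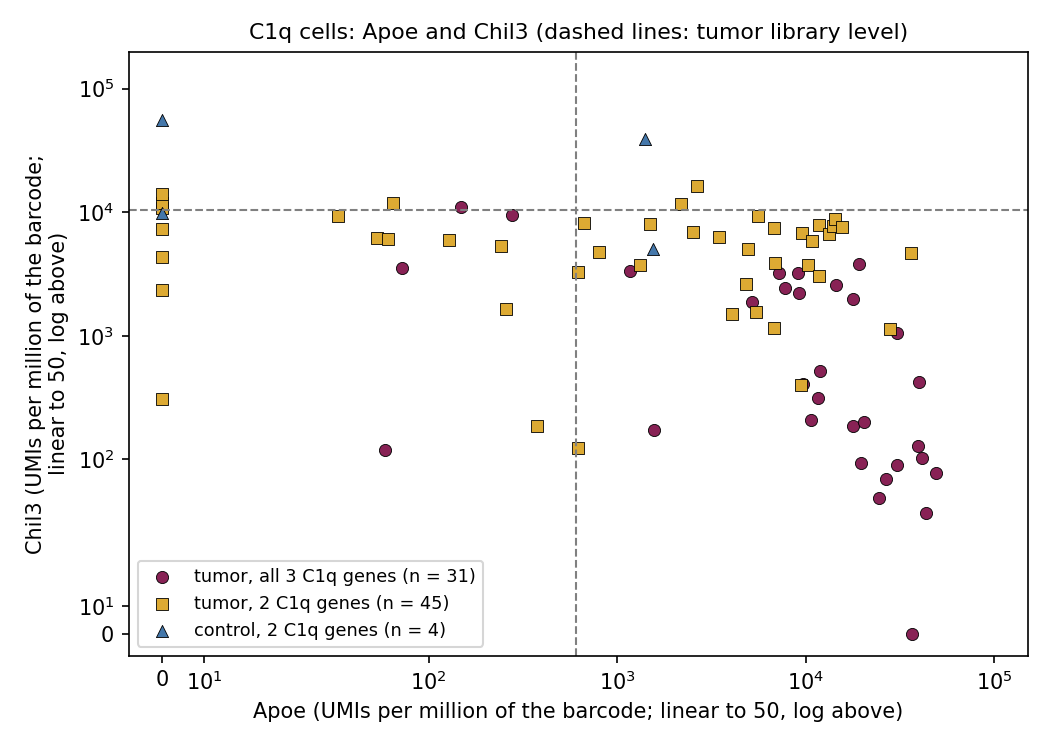
Apoe against Chil3 (CPM within each barcode, linear up to 50 and log above) for each C1q cell, 31 tumor cells with all 3 C1q genes, 45 tumor cells with 2, and 4 control cells. Dashed lines mark the pooled tumor library levels, and most cells with all 3 genes lie to the right of the Apoe line and below the Chil3 line.

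Read from the side of Apoe, the overlap was partial. In thinned tumor barcodes with no Apoe UMI, with 1 to 4 and with 5 or more, C1qb was found in 0.822%, 1.58% and 10.2%, and Itgam in 2.03%, 5.04% and 18.0%. Ms4a7 followed the same order with 3.95%, 7.13% and 12.7%. Ccr2 was at 2.33% (1.93% to 2.78%), 4.54% (3.50% to 5.77%) and 3.74% (2.33% to 5.67%), so it was more frequent with any Apoe UMI, at 4.31% (3.45% to 5.31%), but not highest in the last band. Most of the 561 barcodes with 5 or more Apoe UMIs had no C1qb UMI at this depth. Barcodes with 0 to 4, 5 to 19 and 20 or more Chil3 UMIs had C1qb in 9.63%, 5.06% and 0.969% and Itgam in 11.6%, 8.90% and 2.99%. Ccr2 went the same way over Chil3, at 5.65% (3.32% to 8.89%), 3.83% and 2.64% (2.25% to 3.08%). For the C1q genes and Itgam, barcodes that met both conditions had higher shares than those that met 1. Among the 62 tumor barcodes with 5 or more Apoe and 0 to 4 Chil3 UMIs, 27.4% (16.9% to 40.2%) were C1q cells, 37.1% had C1qb, 35.5% Itgam and 22.6% Ms4a7. With 5 or more Apoe and 5 or more Chil3 UMIs, 2.40% of 499 barcodes were C1q cells, and with low Apoe and low Chil3 1.67% of 239. The control library had 5 barcodes with high Apoe and low Chil3, of which 2 had Itgam and none a C1q UMI. The Apoe limit of 5 lay where 134 tumor barcodes had 4 and 89 had 5 Apoe UMIs, so it cut a continuous range.

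**Figure D5:**
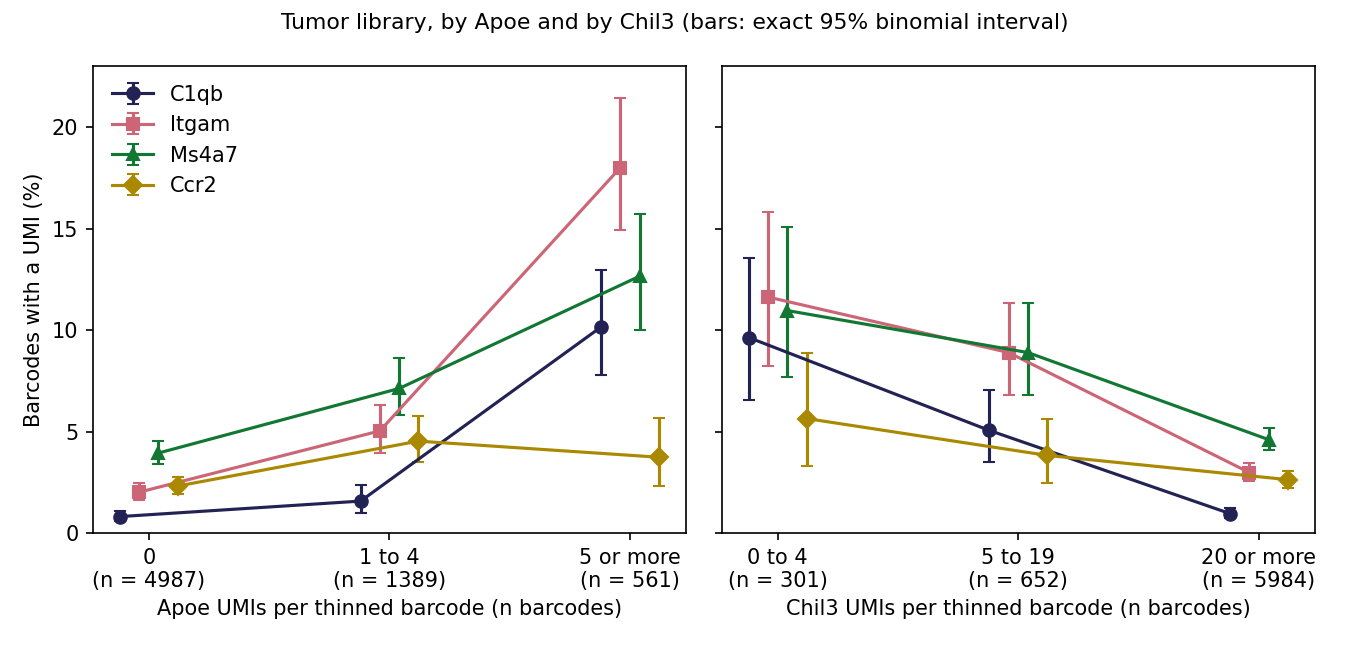
Percent of thinned tumor-library barcodes with a UMI of C1qb, Itgam, Ms4a7 or Ccr2, by the number of Apoe UMIs (left) and of Chil3 UMIs (right) in the barcode, with exact 95% binomial intervals and the number of barcodes per band. C1qb, Itgam and Ms4a7 are higher with more Apoe and lower with more Chil3, and Ccr2 is lower with more Chil3 and lowest without Apoe but not highest in the top Apoe band, with all its shares between 2% and 6%.

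Barcodes with at least 3 UMIs of a gene, a limit chosen after the values were seen, show which cells carried the genes that are not part of C1q. In the tumor library 89 barcodes reached it for Itgam and 73 for Ms4a7. The Itgam ones had Apoe at 7743 CPM and Chil3 at 6302 CPM, and 20 of 89 were C1q cells. The Ms4a7 ones had Apoe at 8854 CPM and Chil3 at 5775 CPM, and 22 of 73 were C1q cells. Both sets were deep, with medians of 17675 UMIs for Itgam and 17270 for Ms4a7 against 8264 in the library. The part of depth in their C1q cell counts was not tested. The summed neutrophil markers were at 279 and 233 CPM in these cells against 150 CPM in the whole tumor library. Itgam is also a neutrophil gene, and the part of these markers in its level was not tested. Among the 18 control barcodes with 3 or more Ms4a7 UMIs, 17 had no Apoe UMI and none had a C1q UMI, in a library where 7.34% of all barcodes had Apoe. Chil3 was at 8831 CPM in these 18 against 11668 CPM in the other control barcodes, and Marco at 648 against 585 CPM. Siglecf was lower in them, at 45.7 against 137 CPM, a log2 ratio of -1.58 (-2.54 to -0.78), with a UMI in 4 of the 18. The 9 such control barcodes for Cx3cr1 held 75.8% of its UMIs, had no Apoe, and had Chil3 at 10362 CPM and a Siglecf UMI in 6 of 9. Their Marco level was 422 against 585 CPM in the other control barcodes, and Siglecf was at 114 against 137 CPM. The 27 of the tumor library had Chil3 at 9606 CPM. These 27 had Marco at 460 CPM and Siglecf at 50.4 CPM (log2 ratio -1.02, -1.86 to -0.30), against 206 and 102 CPM in the other barcodes. They also had Apoe at 2859 against 593 CPM, C1qa at 178 against 8.80 CPM and C1qb at 208 against 19.8 CPM, but the C1qa UMIs lay in 3 and the C1qb UMIs in 2 of the 27, and 13 had no Apoe UMI. Of the 27, 2 were C1q cells.

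Barcodes with several Ccr2 or Ly6c2 UMIs included more C1q cells than the 0.991% of all tumor barcodes, though most were not C1q cells. They were also deeper, with medians of 10039.5 and 13189.5 UMIs against 8264 in the library, and the part of depth in this was not tested. Among thinned tumor barcodes, C1qb was in 2.50% (0.817% to 5.74%) of those with Ccr2 and 1.71% (1.41% to 2.05%) of those without. The 46 tumor barcodes with 3 or more Ccr2 UMIs had Apoe at 676 CPM, near the library level, Chil3 at 7171 CPM, and 3 C1q cells. The AM markers were lower in the 46 than in the other barcodes. Chil3 was at 10545 CPM in those others, Marco at 9.32 against 208 CPM, on 5 UMIs in the 46, and Siglecf at 67.1 against 102 CPM. Against the other barcodes the 46 had C1qb at 82.0 and 20.1 CPM, C1qc at 29.8 and 8.38 CPM, and Itgam at 82.0 and 14.6 CPM. Few of the 46 carried these UMIs, 6 for C1qb, 3 for C1qc and 12 for Itgam. The 8 genes most correlated with Ccr2 in the control library were led by Cdkn3, at r of only 0.12. They included Ube2c and Cenpf, genes of mitosis, at 0.09 and 0.07, and Knstrn, Ccnb1 and Cdc20, at 0.07, 0.07 and 0.06. A list of genes of mitosis (Ube2c and Cenpf with Mki67, Top2a, Prc1 and Birc5) was chosen after seeing the data, so its values are a description and no evidence of a link. At least 3 UMIs of this list were in 11.0% (4.85% to 20.5%) of thinned control barcodes with Ccr2 and in 4.97% (4.41% to 5.57%) of those without, and in 4.50% (2.08% to 8.37%) and 2.05% (1.72% to 2.42%) of tumor ones. The intervals of the control shares met, as did those of the tumor shares, while the summed level of the list was 692 against 180 CPM in the control and 209 against 74.7 CPM in the tumor library. Ly6c2 reached 3 UMIs in 1 control and 8 tumor barcodes. The control barcode had 8 Ly6c2, 3 Ccr2 and 4 Itgam UMIs, the monocyte list at 20033 CPM and Chil3 at 1635 CPM, with no Siglecf UMI. Among the 8 tumor barcodes, 1 carried 45 UMIs of T or NK cell genes and 21 of the 120 Ly6c2 UMIs, Ly6c2 being also a T cell gene. Of all 8, 2 were C1q cells. Without barcodes of 5 or more Ly6c2 UMIs, 1 control and 7 tumor ones, 2 and 39 UMIs were left. Between the libraries that is a log2 ratio of 4.202 (2.252 to 7.298).

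Gene lists around the members gave the wider picture. Between the libraries, 6.02% of all genes tested were at least 2-fold higher and 6.91% at least 2-fold lower in the tumor library. Of 20 monocyte genes, 14 were at least 2-fold higher and 1 at least 2-fold lower in the tumor library, led by F13a1, a clotting factor chain, at 35.9 against 0.386 CPM, and Cd177, with 0.858 against 0.0154 CPM. Of 27 tested genes of interstitial or monocyte-derived macrophages, 14 were higher and 2 lower, led by F13a1 and the chemokine Ccl8. Of 19 complement genes tested, 5 were higher and none lower, led by the C3a receptor C3ar1, at 10.6 against 0.910 CPM, and C1s1, a protease of the C1 complex, which had 15 against 5 UMIs and a log2 interval that included 0 (-0.03 to 3.31). None of 20 AM genes was higher and 2 were lower, which is near the share over all genes. Within the tumor library the lists parted. Of 25 genes of interstitial or monocyte-derived macrophages 19 were at least 2-fold higher in C1q cells and 2 lower, whereas the monocyte list gave 5 in each direction of 18, and 12 of 20 AM genes were lower with none higher, where 5.64% of all genes were higher and 20.9% lower. The 5 lower monocyte genes are near that share, and 3 of them, Ly6c1, Gm9733 and Cd177, had no UMI in C1q cells and intervals that reached above 0. Ccl8 was at 41.2 against 0.622 CPM and Cd72 at 12.4 against 0.326 CPM. The monocyte genes Ifitm3, at 347 against 48.1 CPM, and Ms4a4c, at 17.9 against 3.04 CPM, had the highest ratios of their list. The complement gene C3ar1 had a log2 ratio of 3.64. Ctsk and Fabp4 had the highest log2 ratios of the AM list, 0.83 and 0.79. Markers of other cell types were given as summed levels, C1q cells first. B cell genes were at 0 and 2.15 CPM, T or NK genes at 3.89 and 2.58 CPM, and dendritic genes at 5.45 and 4.67 CPM. Fibroblast genes were at 5.45 and 35.9 CPM, epithelial genes at 28.0 and 24.6 CPM and endothelial genes at 17.9 and 29.7 CPM. Neutrophil genes were at 203 and 149 CPM, the only one of these sums above 100 CPM. S100a8 made up most of it, at 169 against 102 CPM, while Csf3r was at 6.22 against 10.6 CPM and Cxcr2 at 2.33 against 9.41 CPM, and of 4 neutrophil genes tested none was at least 2-fold higher and 1 was lower in C1q cells. Between the libraries, tumor first, these sums were 150 and 114 CPM for neutrophil, 2.60 and 2.87 CPM for T or NK, 2.11 and 7.17 CPM for B, 4.68 and 4.83 CPM for dendritic, 35.3 and 2.65 CPM for fibroblast, 24.7 and 90.1 CPM for epithelial and 29.5 and 32.6 CPM for endothelial genes. The higher neutrophil sum of the tumor library was that of S100a8, at 103 against 45.2 CPM, whereas S100a9 had 3 against 324 UMIs, Mmp8 was at 26.5 against 43.3 CPM and Retnlg at 0 against 0.771 CPM, and the median log2 ratio of the 6 genes tested was -0.46.

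Among 1778 genes that reached 100 CPM in either class, the largest ratios of C1q cells over other cells were those of the defining C1q genes, followed by Apoe, Thbs1 (thrombospondin 1, 160 against 8.63 CPM), C3ar1, Il7r (the interleukin 7 receptor, 158 against 12.8 CPM), Mmp12 (macrophage elastase, 601 against 48.7 CPM), H2-Eb1 (an MHC class II chain, 401 against 36.3 CPM) and Cxcl9 (an interferon-induced chemokine, 202 against 19.7 CPM). Cxcl9 came from 13 of the 76 cells. In the other direction stood Fabp1, a fatty acid binding protein (13.2 against 132 CPM), Krt19, Cidec, Ear1, Car4, Fpr1, Marco, Plet1, Krt79 and Ccnd2, with log2 ratios from -3.32 to -2.20. Over 6937 thinned tumor barcodes, the genes most correlated with the summed C1q level were Apoe (Pearson r = 0.27), Thbs1 (0.22), Aif1 (0.21), Ifitm3 (0.20), Il7r (0.19), Mmp12 (0.19), Itgam (0.18) and C3ar1 (0.18). These values describe cells of 1 library at equal depth and are low, against r = 0.52 between C1qa and C1qb in the same barcodes. The correlation was 0.15 for Ms4a7, 0.08 for Ly6c2, 0.05 for Cx3cr1 and 0.01 for Ccr2, and -0.20 for Chil3.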

How the data were processed

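The deposited tables hold whole-number UMI counts per Ensembl gene and barcode, not normalized, for 1 control and 1 tumor library. The submitters' processing notes name bcl2fastq 2.20, Cell Ranger 4.0.0 and mouse build mm10, while the study's methods name another Cell Ranger version. The methods also mention assigning barcodes to samples by hashtag reads, which were not used here: each table was taken as the library of its label. Gene IDs were matched to symbols (32158 of 32285). Depth was 67847088 and 70738320 UMIs over all barcodes of the control and the tumor library.

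From the counts, barcodes with at least 500 genes and at most 10% mitochondrial UMIs were kept. UMIs were summed per library or class and scaled to CPM, counts per 1000000 UMIs. Levels carry exact Poisson intervals, ratios exact conditional binomial intervals and shares exact Clopper-Pearson intervals, all at 95%, for counting error only. Thinning drew 3800 UMIs per barcode without replacement. Genes with at least 20 UMIs over the classes compared were counted as higher or lower at 2-fold. With 1 library per group, there was no test over samples, and mouse, library and tumor status cannot be told apart. A count of 0 allows up to 3 counts. The 8 members, the gene lists and the C1q cell definition were chosen with earlier results of these data known. Genes named were the members, Apoe, Chil3 and Siglecf, the 2 highest and lowest of a list, the 10 in each direction between C1q and other cells, and the 8 most correlated with C1q. Others were named after their values were seen. Barcodes of other types, used as background, had at least 10 UMIs of T or NK, B or fibroblast markers and under 0.1 times the library's Chil3 level.

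Scrublet, run in scanpy 1.11.5, called 0 doublets in either library by its automatic limit, so it had not worked as a caller, and no barcode was removed. As an alternative, barcodes above its 6% limit of scores were left out, 274 control and 410 tumor ones because scores tie. Other alternatives were the quality limits, scaling, thinning depth and class definition. The scripts were tested on simulated data. Promoters came from RefSeq (GRCm38.p6) and gene models from GENCODE (GRCm38). Python 3.11.15, numpy 2.4.6, scipy 1.17.1, pandas 2.3.3 and matplotlib 3.10.9 were used.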

Additional observations from a re-analysis of the deposited data

Results flagged for a closer look

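Barcodes outside the quality limits, 2300 in the control and 1509 in the tumor library with medians of 1002 and 1067 UMIs, were not part of the comparisons, and for 4 of the 8 genes the interval of the tumor level lay above that of the control level. C1qa was at 8.78 CPM (5.11 to 14.1) against 0 of 2996945 UMIs in the control library, C1qb at 7.75 CPM (4.34 to 12.8) against 0.334 CPM, C1qc at 3.61 CPM (1.45 to 7.45) against 0, and Itgam at 8.26 CPM (4.72 to 13.4) against 0.667 CPM. For the others the intervals overlapped, with Ms4a7 at 5.68 against 4.34 CPM, Cx3cr1 at 1.03 against 0.334 CPM, Ccr2 at 2.07 against 2.67 CPM and Ly6c2 with no UMI in either. No barcode outside the limits held UMIs of 2 C1q genes, and the 17 C1qa UMIs lay in 17 barcodes. In the tumor barcodes inside the limits C1qa was at 9.53 CPM, C1qb at 20.6 CPM and C1qc at 8.55 CPM. The part of free RNA in the barcodes with a single C1q UMI was not tested.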

How the results depend on the processing

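All 8 tumor-over-control ratios stayed above 0 on the log2 scale in the 61 values that alternatives gave, and each gene kept its direction. The mean of each cell's own CPM gave 4.47 for C1qa, 4.25 for C1qb, 0.76 for Ms4a7 and 2.45 for Itgam. Leaving out the 10 barcodes with most UMIs of a gene gave 6.50 for C1qb, 3.12 for Itgam and 2.14 for Cx3cr1, and no value for C1qa, C1qc and Ly6c2, for which no control UMI was left. Leaving out barcodes with 5 or more UMIs, chosen after seeing the data, gave 3.75 for C1qa, 3.25 for C1qb, 5.20 for C1qc, 0.84 for Ms4a7, 2.53 for Itgam and 1.70 for Cx3cr1. That step also gave 1.007 for Ccr2 and 4.202 (2.252 to 7.298) for Ly6c2. The Ly6c2 value was above those of C1qa and C1qb, but it rests on 2 control UMIs and its interval is wide. A mitochondrial limit of 5% gave 5.79 for Ly6c2. With UMIs of all 3 C1q genes required, C1q cells were 0% of control and 0.404% of tumor barcodes. Defined by 2 genes in thinned barcodes, they were 0.548% of tumor ones. The log2 ratios of Apoe and Chil3 in C1q cells over other cells were 4.93 and -1.64 without the highest doublet scores, 5.33 and -2.62 with all 3 genes required, 4.78 and -1.52 with at least 3 C1q UMIs, and 5.60 and -2.30 in thinned barcodes. With genes of at least 500 UMIs, chosen after seeing the data, 2.24% were at least 2-fold higher and 9.58% at least 2-fold lower in C1q cells. Depth limits the control values of the C1q genes and Ly6c2, which rest on 3 to 26 UMIs. The cause of these shifts was not tested. No paired analysis was possible because each group is 1 library.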
